A study of Homo sapiens with 183 samples.

Results

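The members described here are the genes of the proteasome subunits, taken as every gene symbol that begins with PSM, continues with a letter from A to G and ends in a number. The rule found 48 of the 19875 gene names in each table. Of these, 46 passed the filter on low values in every comparison. PSMA8 and PSMB11, the testis and thymus forms of core subunits, stayed at or below 0.272 and 0.302 TPM in every library and were not tested. TPM is a transcript level scaled to length and to the library's total, so levels of different genes can be set side by side.

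Messenger RNA was measured in 183 libraries of 9 human cancer cell lines. In the pancreatic cancer lines AsPC-1, BxPC-3, T3M-4, CFPAC-1 and SUIT-2, which expressed Cas9, guide RNAs from a lentivirus disrupted KLF5, RUVBL1, RUVBL2, SERPINB5 or CHD4, and RNA was collected on day 5. The comparisons asked what each knockout did to the transcriptome of its line, with sgRosa as the control guide of the same line and experiment and with knockouts of CDK1, a cell cycle kinase, and RPA3 (sgRpa3), a replication protein, beside them. AsPC-1 had sgKLF5 in experiments 1 and 3, sgRUVBL1 in 2 and 3, sgRUVBL2, sgCDK1 and sgRpa3 in 3, sgSERPINB5 in 2, and sgCHD4 with its own controls. T3M-4 and BxPC-3 had sgKLF5 and sgRpa3 in experiments 1 and 2 and sgRUVBL1, sgRUVBL2 and sgCDK1 in 2, CFPAC-1 had these 5 knockouts in experiment 1, and SUIT-2 had sgKLF5 only. In the other arm, cells were kept for 24 h in CB-6644, an inhibitor of the RUVBL1/2 ATPases, or in DMSO. These were the parental lines A375 (melanoma), H1048 (small cell lung cancer of the tuft cell-like P subtype), RH30 (alveolar rhabdomyosarcoma) and T84 (colorectal cancer). AsPC-1 and T3M-4 carried an empty vector (Lv-Empty), RUVBL1_A62T or RUVBL2_dF109, the variants that the study used against the inhibitor.

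Groups held 2 to 6 libraries, except DMSO in AsPC-1 and T3M-4, which had 1 library per vector. Those 3 DMSO libraries served together as the control of each line, so vector and control library cannot be told apart there. The labels do not say which guide each knockout library carried or whether replicates were separate cultures, so p-values measure the spread between these libraries only. The libraries are bulk RNA, in which fewer cells of a kind and less RNA per cell cannot be told apart.

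Proteasomes degrade proteins that carry ubiquitin chains. A barrel of alpha and beta rings (PSMA and PSMB genes) holds the protease sites and is capped by a regulatory particle, whose base ATPases (PSMC genes) unfold substrates and whose other subunits (PSMD genes) bind and trim ubiquitin. In the immunoproteasome, PSMB8, PSMB9 and PSMB10 replace the catalytic subunits PSMB5, PSMB6 and PSMB7. PSME1 and PSME2 form the PA28 activator, and both groups are known targets of interferon. PSMG1 to PSMG4 and PSMD5, PSMD9 and PSMD10 are chaperones that assemble the core and the base. The transcription factor NFE2L1 raises proteasome genes as a group when proteasome activity is short.

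Read depth cannot be recovered from TPM, and between 11292 and 14024 genes reached 1 TPM in a library. In control libraries SOX10 was at 236 TPM (median) in A375, MYOD1 at 746 TPM in RH30, POU2F3 at 476 TPM in H1048 and CDX1 at 137 TPM in T84. The epithelial keratin KRT19 was between 2280 and 4400 TPM in the pancreatic lines and at 1340 TPM in T84. Genes listed for pancreatic cancer were not shared by all 5 lines. HNF4A was at 49 TPM in AsPC-1, 0.215 TPM in BxPC-3 and 69.6 TPM in T84, and TFF1 at 0 TPM in SUIT-2. TP63 was at 106 and 79.5 TPM in BxPC-3 and T3M-4 and at most 0.984 TPM in the other pancreatic lines. The melanocyte genes PMEL and MLANA were at 0.884 and 1.23 TPM in A375, and MITF was at 17.1 TPM there and at 23.3 TPM in CFPAC-1. Of the other tuft cell genes, H1048 had ASCL2 at 8 TPM, below the 36.1 TPM of T84, and TRPM5 at 0.0632 TPM. RUVBL1 and RUVBL2 mRNA lay below every control library in each knockout of its gene, with log2 changes between -1.87 and -1.14 and between -1.76 and -1.24. RPA3 mRNA lay below all controls in its 6 knockouts, SERPINB5 in its own (-1.35) and CDK1 in 3 of 4, with overlap in CFPAC-1. KLF5 mRNA lay below all controls only in CFPAC-1 (-0.41) of 8 comparisons and rose in T3M-4 experiment 2 (0.78) and AsPC-1 experiment 1 (0.53), and CHD4 mRNA rose with sgCHD4 (0.28), so mRNA does not check the sgKLF5 and sgCHD4 labels, which name those groups here as given. All changes are differences of log2(TPM + 1), tested by limma with Benjamini-Hochberg adjustment at 0.05, and "rose" and "fell" are used of members past that threshold. In 39 comparisons with a control, many genes often moved together in 1 direction, so counts are also given after median-of-ratios scaling where it moved the split of calls by over 10 percentage points and beside some other counts that it changed. That scaling brought the median change of all genes from between -0.22 and 0.33 to between -0.06 and 0.04.

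Promoters are shown for 4 members whose changes are described below and whose windows hold the searched motifs: PSMB9 and PSMB10 of the immunoproteasome, PSME2 of the PA28 activator, and PSMD3, a subunit of the regulatory particle lid. Each run holds the 250 bases before the start in RefSeq on GRCh38.p14, with the matches to 3 searched motifs in capitals.
PSMB9: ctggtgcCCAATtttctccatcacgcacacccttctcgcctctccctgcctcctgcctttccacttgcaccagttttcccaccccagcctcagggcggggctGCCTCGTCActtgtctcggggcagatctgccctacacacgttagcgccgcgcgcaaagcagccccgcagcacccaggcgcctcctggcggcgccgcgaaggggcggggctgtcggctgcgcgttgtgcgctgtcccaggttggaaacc
PSMB10: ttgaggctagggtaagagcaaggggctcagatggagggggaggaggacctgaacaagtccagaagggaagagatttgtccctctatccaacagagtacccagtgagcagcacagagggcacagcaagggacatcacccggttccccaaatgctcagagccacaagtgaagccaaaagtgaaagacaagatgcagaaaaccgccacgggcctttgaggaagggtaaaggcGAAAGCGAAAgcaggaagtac
PSME2: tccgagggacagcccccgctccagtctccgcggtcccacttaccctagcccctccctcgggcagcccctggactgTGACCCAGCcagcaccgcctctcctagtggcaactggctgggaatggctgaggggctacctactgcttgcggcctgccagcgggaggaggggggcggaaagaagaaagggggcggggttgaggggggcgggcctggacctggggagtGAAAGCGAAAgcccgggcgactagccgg
PSMD3: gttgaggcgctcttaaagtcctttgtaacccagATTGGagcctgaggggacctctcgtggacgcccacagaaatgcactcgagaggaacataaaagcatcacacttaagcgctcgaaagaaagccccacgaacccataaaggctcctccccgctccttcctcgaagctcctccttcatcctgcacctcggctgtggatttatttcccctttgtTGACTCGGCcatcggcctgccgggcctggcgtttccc
The PSMB9 window is chr6:32853942-32854191 on the plus strand, and the gene lies at chr6:32854192-32859851. TAP1 (chr6:32845209-32853704) lies between it and PSMB8 (chr6:32840717-32844679). The PSMB10 window is chr16:67936851-67937100 on the minus strand, before the gene at chr16:67934506-67936850. The PSME2 window is chr14:24146611-24146860 on the minus strand, before the gene at chr14:24143365-24146610, and its partner PSME1 lies close by at chr14:24136194-24138962. The PSMD3 window is chr17:39980557-39980806 on the plus strand, before the gene at chr17:39980807-39997959.

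In the printed windows, the 10 capital letters near the start of PSMB10 and PSME2 are the core of the interferon-stimulated response element, GAAA and again GAAA after 2 free bases. The 9 capital letters in PSMB9, PSME2 and PSMD3 are the antioxidant response element core TGACNNNGC, which NFE2L1 and its relatives bind, read on either strand, and the 5 letters are CCAAT boxes. Of the 48 members, 42 had a promoter in the table (PSMA7, PSMB1, PSMB6, PSMB7, PSMD4 and PSMG3 did not). Over 300 bases, with 50 after the start included, TGACNNNGC was found on either strand in 13 of 42 members (31%) and in 13.6% of 27305 promoters. CCAAT was found in 19 members (45.2%) and in 35.7% of promoters. The interferon core was found in 6 members (14.3%), namely PSMA4, PSMB4, PSMB10, PSME1, PSME2 and PSMG4, and in 3.65% of promoters. A match describes these letters only and is not shown to be a binding site.

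In control libraries the constitutive subunits were expressed in every line. By line median, their summed levels differed less between lines than that of the immunoproteasome subunits. The summed level of the 14 constitutive core subunits had line medians from 4080 TPM in SUIT-2 to 6800 TPM in H1048. That of the regulatory particle ran from 2040 to 4210 TPM in the same lines. In both sums H1048, at 6741 to 6948 and 4161 to 4221 TPM, lay above every control library of the other lines. PSMA5 was the lowest alpha subunit and PSMB2 the lowest beta subunit in all 9 lines, with PSMB2 between 61.6 TPM in AsPC-1 and 119 TPM in A375. PSMB4 in A375 was the highest member, at 1100 TPM. These levels come from tables normalised separately and are descriptions with no test.

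The immunoproteasome ranged more widely. Per library, PSMB8, PSMB9 and PSMB10 together held 35.9 to 42.4 TPM in RH30, 123 to 133 in A375, 83.1 to 206 in AsPC-1, 192 to 223 in T84 and 197 to 217 in H1048. They held 165 to 265 TPM in BxPC-3, 250 to 328 in SUIT-2, 206 to 683 in T3M-4 and 387 to 436 in CFPAC-1. RH30 lay below every library of the other lines, whereas T84, H1048, BxPC-3 and T3M-4 overlapped. By median, PSMB8 made up 3.26% of PSMB8 plus its constitutive counterpart PSMB5 in RH30, 12% in A375, 12.7% in AsPC-1 and 32.7% in SUIT-2, the highest line. In T3M-4 the same share ran from 19.6% to 50.4% over 9 control libraries of different experiments. The 3 subunits did not follow each other across lines: H1048 had PSMB8 at 163 TPM and PSMB10 at 17.4 TPM, whereas BxPC-3 had them at 88.8 and 104 TPM. The leukocyte gene CD3E was at most 0.532 TPM and PTPRC at most 8.9 TPM in any line's control median. LYZ, also on the leukocyte list, was at 110 TPM in CFPAC-1, 49.1 TPM in T84, 24.6 TPM in SUIT-2 and at most 12.2 TPM in the other lines.

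**Figure D1:**
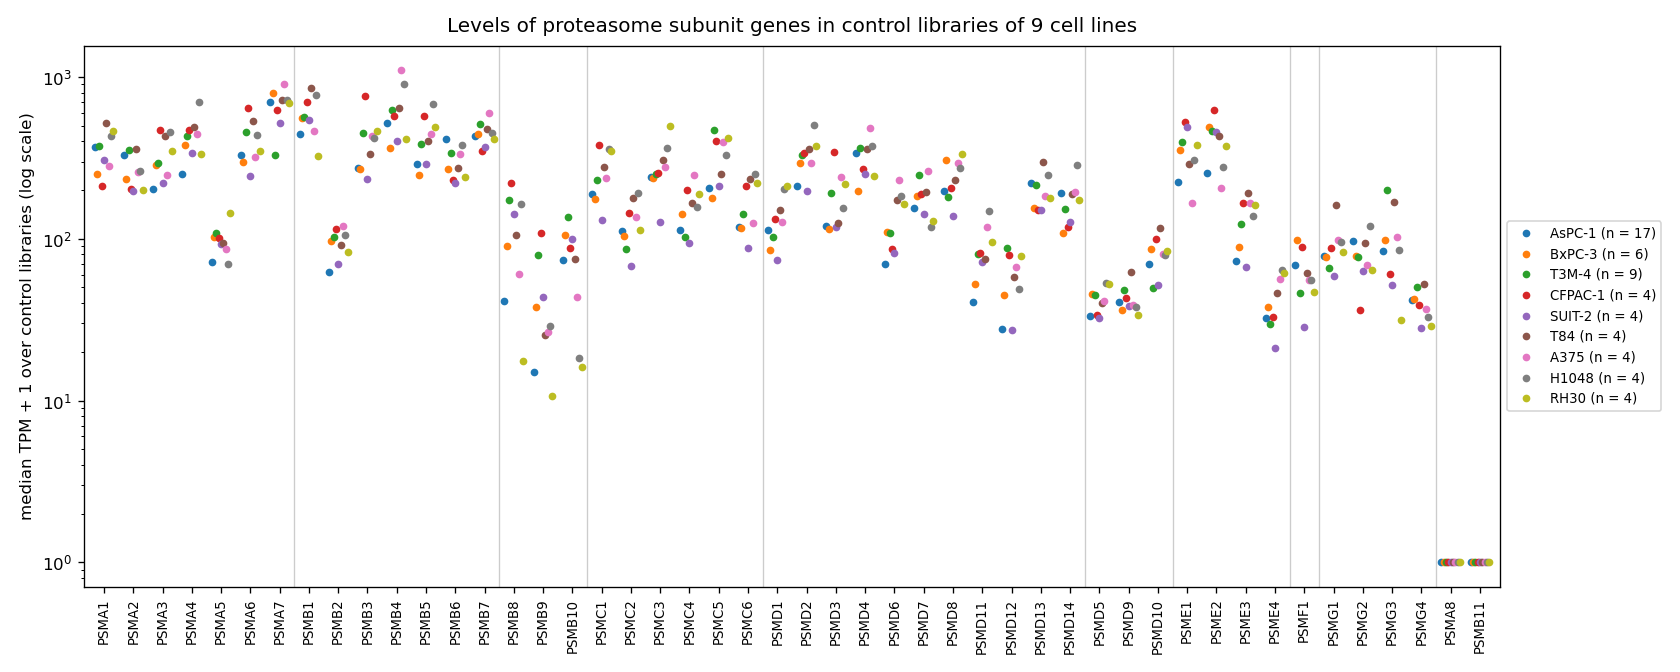
Median level (TPM + 1, log axis) of each of the 48 members over the control libraries of each line, with genes ordered by role on the horizontal axis and lines in colour (4 to 17 control libraries each). PSMB8, PSMB9 and PSMB10 spread most between lines, from 9.6 TPM of PSMB9 in RH30 to 107 TPM in CFPAC-1, and PSMA8 and PSMB11 lie at the bottom.

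Across the 39 comparisons with a control, at least 24 of the 46 members moved in 1 direction in 4 before scaling, rising in 1 and falling in 3. They rose in sgKLF5 of BxPC-3 experiment 2, where 21% of all genes rose. They fell in CB-6644 of A375 and with sgRpa3 in BxPC-3 and T3M-4 experiment 2, where 29.7%, 11.6% and 6.2% of all genes fell. After median-of-ratios scaling at least 24 members fell in 11 comparisons, 8 of them with CB-6644, and in 0 did as many rise. In these 11, the share of all genes that fell after scaling ran from 7.09% with sgRpa3 in CFPAC-1 to 44.1% with CB-6644 in A375.

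**Figure D2:**
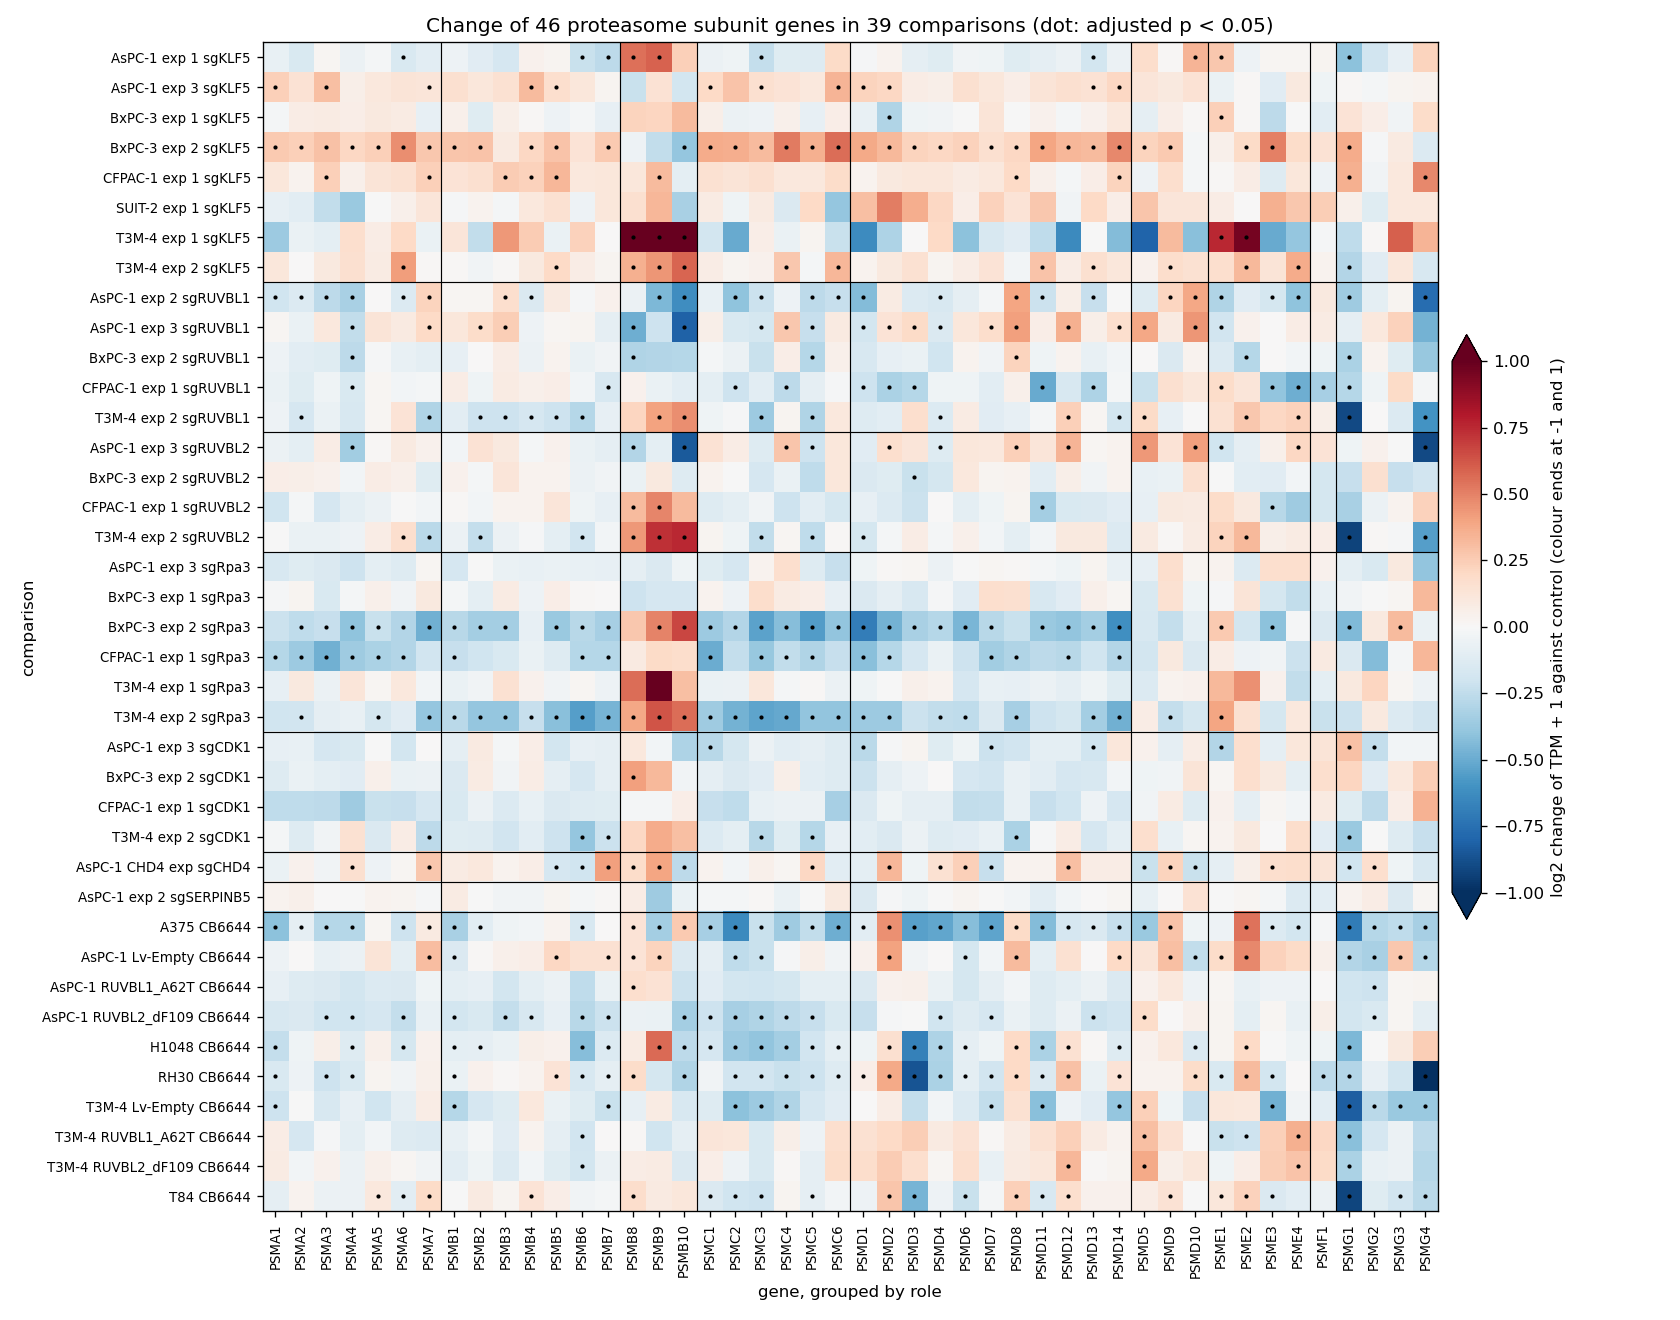
Log2 change of TPM + 1 for the 46 tested members (columns, by role) in the 39 comparisons with a control (rows), with colour ending at -1 and 1 and a dot where the adjusted p was under 0.05. The row of BxPC-3 experiment 2 sgKLF5 is red with a dot in 34 members, and PSMG1 is blue with CB-6644 in all 6 lines.

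With CB-6644, PSMG1, a chaperone that starts assembly of the alpha ring, fell in all 6 lines with parental or empty-vector cells, and so did the base ATPases PSMC2 and PSMC3. PSMD3 fell most in RH30, H1048, A375 and T84. PSME2 of the PA28 activator, PSMD2, the large ubiquitin-receptor scaffold of the base, and PSMD8, a lid subunit, rose in 5 of the 6 lines before scaling. Over 10024 genes tested in all 6 lines, 5.48% fell and 10.6% rose in every line. As a share of the members tested, PSMG1, PSMC2 and PSMC3 lie near the 5.48% that fell. The share of all genes that rose in 5 of the 6 lines was not counted.

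PSMG1 in A375 was at 97.7, 97.2, 85.5 and 99.6 TPM with DMSO and at 59.1, 60.4, 52.6 and 60.1 TPM with CB-6644. In T84 it was at 143, 163, 156 and 179 TPM with DMSO and at 88.4, 83.3, 79.9 and 85.8 TPM with CB-6644. The groups did not overlap in either line. The log2 change of PSMG1 was -0.70 ± 0.06 (SE, n = 4 and 4, limma adjusted p = 3.38e-07) in A375 and -0.92 ± 0.06 (n = 4 and 4, adjusted p = 2.1e-09) in T84. In T3M-4, DMSO gave 54.9 TPM with the empty vector, 53.8 with RUVBL1_A62T and 64.6 with RUVBL2_dF109, and CB-6644 with the empty vector gave 30.9, 31.5 and 34.1 TPM. All 3 treated libraries lay below the 3 controls, with a change of -0.82 ± 0.08 (adjusted p = 5.29e-05). The change was smaller in H1048 (-0.45), AsPC-1 (-0.29) and RH30 (-0.29), where the groups were also apart.

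PSMC2, an ATPase of the base, was at 135, 130.0, 137 and 138 TPM with DMSO and at 88.7, 86.1, 83.2 and 87.9 TPM with CB-6644 in A375, a change of -0.63 ± 0.03 (adjusted p = 4.34e-09). In H1048 it was at 188, 183, 193 and 199.9 TPM against 144, 157, 136 and 155 TPM (-0.37). Changes in the other lines were -0.41 in T3M-4, -0.25 in AsPC-1, -0.20 in T84 and -0.19 in RH30. PSMC3, its neighbour in the ATPase ring, changed by between -0.40 in H1048 and -0.19 in RH30, with treated libraries below all controls in each line. After scaling PSMG1, PSMC2 and PSMC3 still fell in all 6 lines, with the smallest changes in RH30 (-0.46, -0.36 and -0.36). All 6 base ATPases fell in A375 and in H1048, 5 of 6 in RH30, 4 in T84, 3 in T3M-4 and 2 in AsPC-1, and none rose in any of these lines. Of all genes tested, 29.7% fell in A375, 24% in H1048, 27.3% in RH30, 24.2% in T84, 15.2% in T3M-4 and 17.2% in AsPC-1.

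PSMD3 in RH30 was at 219, 217, 223 and 215 TPM with DMSO and at 124, 122, 115 and 117 TPM with CB-6644. This was a change of -0.86 ± 0.03 (n = 4 and 4, adjusted p = 6.54e-11), with no overlap. The corresponding changes were -0.67 in H1048, -0.54 in A375 and -0.46 in T84, all without overlap. In AsPC-1 (-0.03, adjusted p = 0.674) and T3M-4 (-0.24, adjusted p = 0.186) PSMD3 did not pass the test, although it fell in both after scaling (-0.30 and -0.34, adjusted p = 0.000324 and 0.00791). PSMG4, a chaperone that pairs with PSMG3, was at 30.8, 29.4, 23.4 and 26.7 TPM with DMSO in RH30 and at 11.4, 12.1, 10.8 and 16.2 TPM with CB-6644, the largest fall of any member in the treated lines (-1.08 ± 0.11, adjusted p = 1.52e-06). Core chaperones fell in A375 and T3M-4 (4 of 4 each), AsPC-1 and T84 (3 each), RH30 (2) and H1048 (1), and PSMG3 rose in AsPC-1 (0.27). The shares of all genes that fell in these lines, given above, lay between 15.2% in T3M-4 and 29.7% in A375. PSMG2 fell most of all members in AsPC-1 (-0.32 ± 0.05, adjusted p = 0.000147). Among other members of the regulatory particle, PSMD11 fell in 5 lines (-0.44 in A375, -0.42 in T3M-4), PSMD4 in RH30 (-0.31) and PSMD6 in T84 (-0.22). Of the core, PSMB1 fell in 5 lines (-0.33 in A375 to -0.07 in RH30) and PSMB6 in H1048 (-0.43).

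Some members went the other way. PSME2 in A375 was at 197, 190.3, 210.0 and 212 TPM with DMSO and at 300.1, 298, 289 and 294 TPM with CB-6644 (0.54 ± 0.03, adjusted p = 5.45e-08). In AsPC-1 its 3 DMSO libraries were at 283, 262 and 269 TPM and the empty-vector CB-6644 libraries at 388, 373 and 375.2 TPM (0.48 ± 0.05, adjusted p = 6.09e-06). It rose less in RH30 (0.32), T84 (0.23) and H1048 (0.20) and did not pass in T3M-4 (0.11, adjusted p = 0.314), and after scaling it rose in 3 of the 6 lines. PSMD2 rose in A375 (0.46), AsPC-1 (0.41), RH30 (0.38), T84 (0.28) and H1048 (0.16), in 2 of them after scaling. PSMD8 rose in the same 5 lines by between 0.19 and 0.32, and in none after scaling. PSMD9 (0.28) in A375 and PSMD12 in RH30 (0.29) and H1048 (0.16) rose too.

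The immunoproteasome subunits did not change together under CB-6644. PSMB9 in H1048 rose from 28.8, 26.8, 26.5 and 29.1 TPM to 42.2, 38.2, 42.3 and 44.2 TPM (0.57 ± 0.05, adjusted p = 6.63e-07), whereas in A375 it fell from 26.6, 22.2, 26.5 and 24.9 TPM to 20.5, 19.98, 17.6 and 20.2 TPM (-0.34 ± 0.06, adjusted p = 0.00044). In AsPC-1 PSMB9 rose (0.23). PSMB10 rose in A375 (0.26) and fell in H1048 (-0.26) and RH30 (-0.30). PSMB8 rose by 0.14 to 0.18 in A375, AsPC-1, RH30 and T84, in none of them after scaling. PSME1 rose in AsPC-1 (0.18) and T84 (0.11) and fell in RH30 (-0.15). In T3M-4, none of these 5 passed the test, with changes between -0.16 and 0.12.

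**Figure D3:**
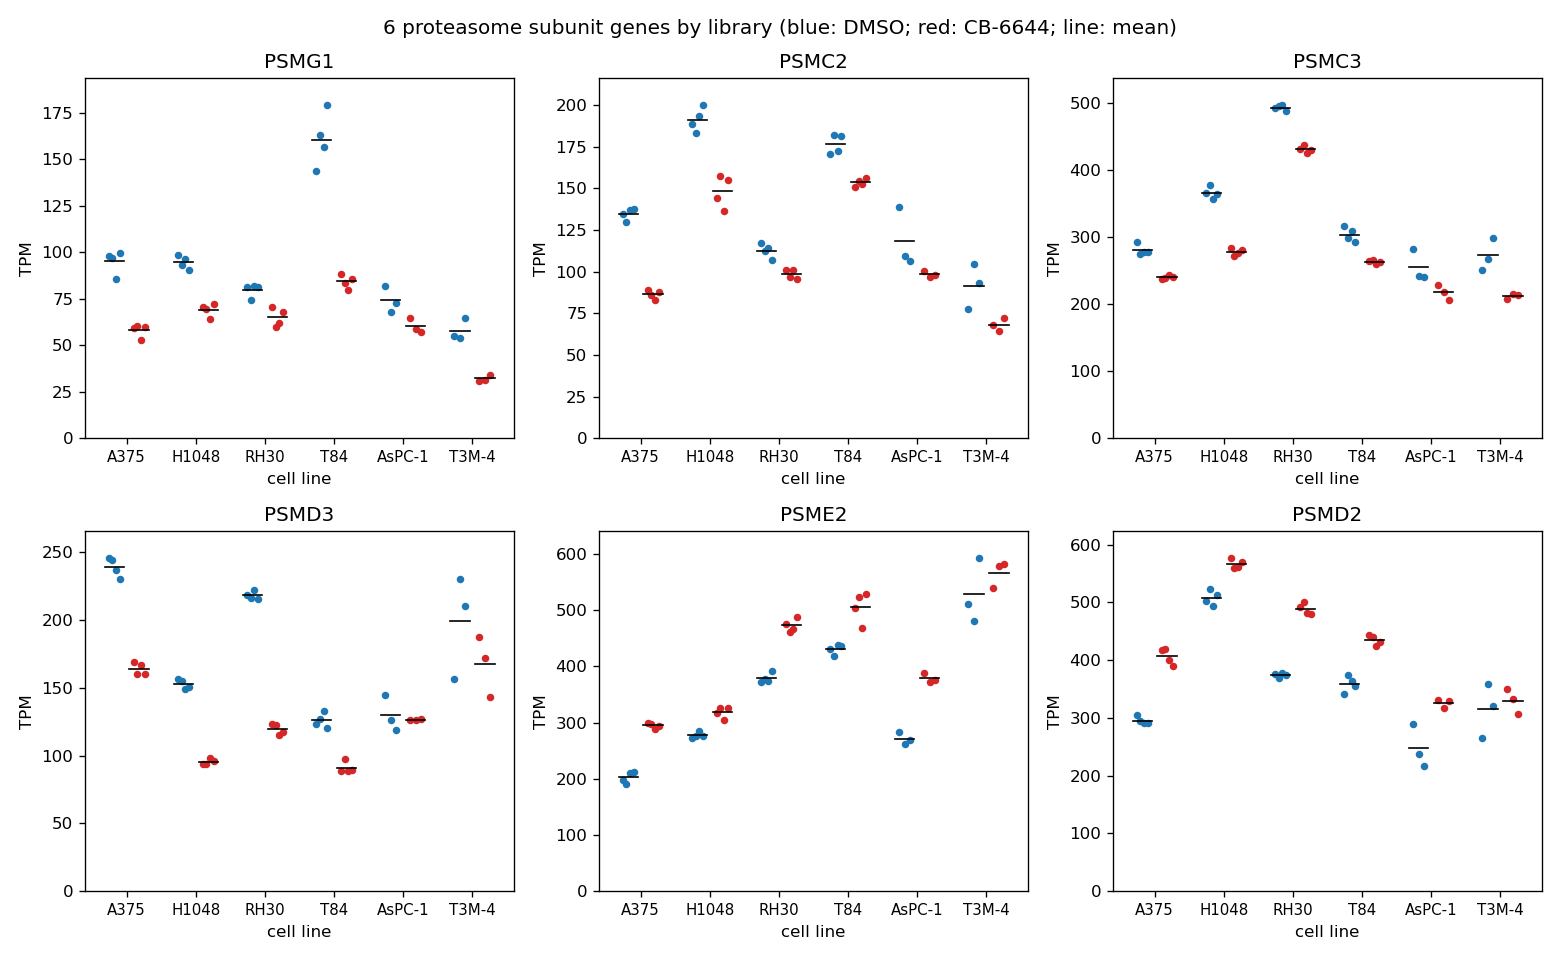
TPM per library of PSMG1, PSMC2, PSMC3, PSMD3, PSME2 and PSMD2 with DMSO (blue) and CB-6644 (red) in A375, H1048, RH30, T84, AsPC-1 and T3M-4 (in the latter 2, empty-vector CB-6644 against the 3 DMSO libraries), with a line at each mean. PSMG1 with CB-6644 lies below all DMSO libraries in each line, and in T84 it went from a mean of 160.5 to 84.3 TPM.

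By count, more members fell than rose with CB-6644 in 5 of the 6 lines, against a background in which more genes rose than fell. In A375, 31 of 46 members fell and 7 rose, where 29.7% and 51.5% of all genes tested did. The median change was -0.19 for members and 0.16 for all genes, and after scaling 40 fell and 2 rose, against 44.1% and 36.4% of genes. In H1048, 21 fell and 5 rose (PSMB9, PSMD12, PSMD2, PSMD8 and PSME2), against 24% and 53.9%, and after scaling 38 and 1, against 40% and 35.2%. Leaving out H1048 CB-6644 replicate 2 gave 21 and 8.

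In RH30, 22 members fell and 9 rose, against 27.3% and 50.4% of genes, and after scaling 38 and 3, against 41.2% and 35%. In T84, 12 fell and 10 rose, against 24.2% and 47.2%, and after scaling 34 and 0, against 39.6% and 31.4%. As shares of the 46 members, the falling ones were 67.4% in A375, 45.7% in H1048, 47.8% in RH30 and 26.1% in T84 before scaling, so only in T84 was the share near that of all genes. The median member change was -0.05 in H1048, -0.08 in RH30 and -0.02 in T84, and that of all genes 0.18, 0.13 and 0.13. A limma F test of the interaction of line and treatment over these 4 lines passed for 39 of 46 members. This share was near the 86.2% of all genes tested that passed.

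In AsPC-1 with the empty vector, 12 members rose and 8 fell, where 47.2% of genes rose and 17.2% fell. After scaling 1 rose and 28 fell, against 25.4% and 36.6%. The member median was 0.03 against the 3 DMSO libraries and -0.14 against the Lv-Empty DMSO library alone, where 7 rose and 22 fell, against 30.5% and 18.6%. Single libraries moved these counts: without the Lv-Empty DMSO library 22 rose and 6 fell, without CB-6644 replicate 2 the counts were 9 and 5, and without replicate 3 they were 8 and 5. In T3M-4 with the empty vector, 14 members fell and 1 rose (PSMD5, a base chaperone, 0.24 ± 0.08), against 15.2% and 19.1% of genes. Here 24 fell and 1 rose without the Lv-Empty DMSO library, 7 and 1 without the RUVBL1_A62T DMSO library and 6 and 0 without that of RUVBL2_dF109. Leaving out CB-6644 replicate 1, 2 or 3 gave 12, 5 or 13 falling and 0 rising.

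Before scaling, NFE2L1 itself rose with CB-6644 in all 6 lines. Its mean went from 128 ± 3.54 to 254 ± 3.33 TPM (SD, n = 4 and 4) in A375, a log2 change of 0.98 (adjusted p = 6.31e-11). The changes were 0.80 in T84, 0.58 in RH30, 0.54 in AsPC-1 and 0.49 in H1048, all without overlap, and 0.36 in T3M-4 with overlap (adjusted p = 0.0316). Of 9 genes of proteasome gene activation, which include NFE2L1, its processing enzymes and its small MAF partners, 8 rose in RH30, 7 in A375, AsPC-1 and H1048, 6 in T84 and 1 in T3M-4, and 2 fell in A375 and 1 in H1048. Of all genes tested, 50.4% rose in RH30, 51.5% in A375, 47.2% in AsPC-1 and in T84, 53.9% in H1048 and 19.1% in T3M-4. The falling shares were 29.7% in A375 and 24% in H1048. Values of this list and of NFE2L1 after scaling are not given here. The median changes of this list were 0.32 in A375, 0.52 in AsPC-1, 0.49 in H1048, 0.43 in RH30, 0.60 in T84 and 0.07 in T3M-4. MAFF, a small MAF protein, rose most in A375 (1.64), T84 (1.16) and RH30 (0.92).

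Of 10 genes of interferon response and peptide presentation, 8 rose and 1 fell in A375 and in RH30, 7 and 1 in AsPC-1, 6 and 1 in T84, 6 and 0 in H1048 and 2 and 1 in T3M-4. The shares of all genes that rose were 51.5% in A375, 50.4% in RH30, 47.2% in AsPC-1 and in T84, 53.9% in H1048 and 19.1% in T3M-4. After scaling the counts of this list were 6 and 2 in A375, 5 and 1 in RH30, 5 and 2 in AsPC-1, 4 and 3 in T84 and in H1048 and 1 and 2 in T3M-4. IRF1, an interferon-regulated transcription factor, rose in A375 (1.59), AsPC-1 (1.4026), H1048 (1.07) and T84 (1.03). Of 11 proteasome partners such as POMP and USP14, 5 rose and 5 fell in A375, 5 and 1 in AsPC-1, 3 and 4 in H1048, 7 and 2 in RH30, 6 and 3 in T84 and 0 and 4 in T3M-4. After scaling these became 3 and 7, 2 and 5, 0 and 8, 4 and 4, 0 and 5, and 0 and 7. Of 6 genes for ubiquitin and its activating enzymes, 3 rose and 0 fell in A375, 4 and 1 in AsPC-1 and RH30, 1 and 2 in H1048, 3 and 2 in T84 and 2 and 1 in T3M-4. After scaling at most 2 of the 6 rose in any of these lines, and 3 fell in A375, 5 in H1048, 2 in AsPC-1, RH30 and T84 and 1 in T3M-4. For these 3 lists, the shares of all genes that rose and fell after scaling were 36.4% and 44.1% in A375, 25.4% and 36.6% in AsPC-1 and 35.2% and 40% in H1048. They were 35% and 41.2% in RH30, 31.4% and 39.6% in T84 and 16.5% and 25.2% in T3M-4. Other large changes were those of MAFK in A375 (1.11), MAFK and MAFG in AsPC-1 (1.22 and 1.16), MAFG in T84 (0.91), DDI2, the protease that cleaves NFE2L1, in H1048 (0.63), and ERAP1, a peptide-trimming enzyme, in RH30 (0.71) and T3M-4 (0.66), where IRF9, a partner of the STAT factors, fell (-0.59).

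In AsPC-1, PSME2 and PSMD2, which rose with CB-6644 in empty-vector cells, were lower with either RUVBL variant in CB-6644. PSME2 with CB-6644 was at 388, 373 and 375.2 TPM with the empty vector, at 262, 267 and 247 TPM with RUVBL1_A62T and at 258, 239 and 263 TPM with RUVBL2_dF109. The variant libraries lay below all empty-vector libraries (-0.55 ± 0.05, adjusted p = 4.19e-06, and -0.58 ± 0.05, adjusted p = 3.75e-06). PSMB6, the subunit that PSMB9 replaces, was also lower (-0.41 and -0.43), as was PSMD2 (-0.37 and -0.42). In T3M-4, PSMG1 with CB-6644 was at 43.7, 44.1 and 40.9 TPM with RUVBL1_A62T and at 47.2, 45.0 and 45.8 TPM with RUVBL2_dF109, above the 30.9, 31.5 and 34.1 TPM of the empty vector and below all DMSO libraries. Against the empty vector in CB-6644 it was higher by 0.41 ± 0.08 with RUVBL1_A62T (adjusted p = 0.00323) and by 0.50 ± 0.08 with RUVBL2_dF109 (adjusted p = 0.00333). Against DMSO it still fell with both (-0.42 and -0.32).

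Against DMSO, RUVBL1_A62T cells of AsPC-1 treated with CB-6644 had 1 member higher (PSMB8, 0.17) and 1 lower (PSMG2, -0.21), where 10.8% and 1.98% of genes were called. The other subunits of the PA28 and immunoproteasome group changed by between -0.22 (PSMB10) and 0.15 (PSMB9) and did not pass. After scaling the counts were 0 higher and 22 lower, against 5.3% and 8.53%. Leaving out any CB-6644 replicate gave 0 and 0, while 8 members fell without the RUVBL1_A62T DMSO library, 2 without the Lv-Empty DMSO library and 1 (with 0 higher) without that of RUVBL2_dF109. In RUVBL2_dF109 cells of AsPC-1, 18 members fell and 1 rose (PSMD5, 0.19), against 4.1% and 29.3% of genes, and after scaling 40 fell and 0 rose, against 19.9% and 11.7%. PSMB10 (-0.34), PSMC2 (-0.33) and PSMC3 (-0.30) fell most, while PSMB8, PSMB9, PSME1 and PSME2 were between -0.10 and 0.02. Without CB-6644 replicate 1, 2 or 3, 6, 5 or 15 fell and 0 rose, and without the RUVBL1_A62T, RUVBL2_dF109 or Lv-Empty DMSO library 24, 18 or 14 fell and 0, 0 or 2 rose.

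In T3M-4, 4 members fell (PSMG1, PSME1 -0.22, PSME2 -0.21 and PSMB6 -0.19) and 2 rose (PSME4, the PA200 activator, 0.35, and PSMD5, 0.30) with RUVBL1_A62T, against 4.6% and 45.4% of genes. After scaling 34 fell and 0 rose, against 18.7% and 10.3%. With RUVBL2_dF109, 2 fell (PSMG1 and PSMB6, -0.19) and 3 rose (PSMD5 0.38, PSMD12 0.33 and PSME4 0.29), against 3.34% and 34.3%, and after scaling 24 fell and 0 rose, against 15.9% and 8.59%. The PA28 and immunoproteasome members that did not pass were between -0.20 and 0.08 in both. These few calls depended on single libraries. With RUVBL1_A62T, leaving out CB-6644 replicate 1, 2 or 3 gave 1, 2 or 1 lower and 2, 1 or 2 higher, the RUVBL1_A62T DMSO library 7 and 11, and the RUVBL2_dF109 DMSO library 1 and 1. With RUVBL2_dF109, the replicates gave 1, 0 or 0 lower and 1 higher each, and the RUVBL1_A62T, RUVBL2_dF109 and Lv-Empty DMSO libraries gave 2 and 9, 0 and 1, and 4 and 1.

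Set directly against empty-vector cells in CB-6644, AsPC-1 with RUVBL1_A62T had 2 members higher (PSMG4 0.31, PSMD10 0.19) and 15 lower, against 18.9% and 32.3% of genes. After scaling both counts were 5, against 30.3% and 22%. AsPC-1 with RUVBL2_dF109 had 2 higher (PSMD10 0.29, PSMG2 0.17) and 26 lower, against 20.9% and 26.3%, and after scaling 3 and 14, against 28.5% and 22%. The single DMSO libraries differed in the same direction, with the constitutive core at 5360 TPM with the empty vector, 4640 with RUVBL1_A62T and 4761 with RUVBL2_dF109 and the regulatory particle at 3221, 2740 and 2671 TPM. With RUVBL2_dF109 in CB-6644, PSMB9 (-0.29), PSMB8 (-0.20), PSMB10 (-0.20) and PSME1 (-0.16) were lower than with the empty vector, whereas with RUVBL1_A62T only PSME1 (-0.17) and PSME2 of this group were. In T3M-4, 20 members were higher and 4 lower with RUVBL1_A62T, against 41.4% and 9.21%, and after scaling 2 and 8, against 22.7% and 20.6%. The 4 were PSME1 (-0.34), PSME2 (-0.31), PSMB9 (-0.28) and PSMA7 (-0.21). With RUVBL2_dF109, 17 were higher and 0 lower in limma (1 lower at an unadjusted p under 0.05), against 29.8% and 4.86%, and after scaling 2 and 3, against 14.2% and 11.8%. None of PSMB8, PSMB9, PSMB10, PSME1 and PSME2 passed there, with changes between -0.16 and 0.15.

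The largest differences in T3M-4 were in PSME3, a nuclear activator, PSMD11, a lid subunit, and PSMC2. With CB-6644, PSME3 was at 85.2, 73.6 and 61.5 TPM with the empty vector, at 122, 118 and 121 TPM with RUVBL1_A62T and at 120.3, 126 and 119 TPM with RUVBL2_dF109 (0.72 ± 0.15 and 0.73 ± 0.15). In DMSO, however, the same 3 vectors gave 78.4, 122 and 111 TPM, so PSME3 differed between the empty-vector DMSO library and those of the variants in the same way. PSMD11 was higher by 0.57 and 0.53, and PSMC2 by 0.52 with RUVBL1_A62T. With RUVBL1_A62T, 13 and 14 were higher without CB-6644 replicates 1 and 3 of the variant and 11 and 18 without replicates 2 and 3 of the empty vector, with 2 lower each time. With RUVBL2_dF109 it gave 6, 6 and 5 higher without variant replicates 1, 2 and 3, and 7 and 11 without empty-vector replicates 2 and 3. In AsPC-1, 1 instead of 2 were higher without RUVBL1_A62T replicate 1 or 2 or any empty-vector replicate, and without RUVBL2_dF109 replicate 1 (19 lower), 2 (21 lower) or empty-vector replicate 2 (19 lower).

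Knockout of RUVBL1 lowered PSMG1 in 4 of 5 comparisons, both before and after scaling. In T3M-4 experiment 2, PSMG1 was at 80.1, 65.0, 63.1 and 72.1 TPM with sgRosa, at 36.3, 38.4 and 36.0 TPM with sgRUVBL1 and at 37.2, 37.2, 37.3 and 33.3 TPM with sgRUVBL2. Both knockouts lay below all controls (-0.90 ± 0.10, n = 3 and 4, limma adjusted p = 9.27e-07, and -0.93 ± 0.09, n = 4 and 4, limma adjusted p = 2.76e-07). PSMG1 also fell with sgRUVBL1 in AsPC-1 experiment 2 (-0.36), BxPC-3 (-0.32) and CFPAC-1 (-0.29) but not in AsPC-1 experiment 3 (-0.09, adjusted p = 0.366). PSMA4, an alpha subunit, fell in 4 of 5 as well (-0.33 to -0.15), and so did PSMC5, a base ATPase (-0.30 to -0.23), each in 3 after scaling. PSMD8 rose in 3 of 5 (0.22 to 0.41). In single comparisons of these 5, between 7.67% and 37.3% of all genes fell and between 6.54% and 45.9% rose. The share of all genes that fell or rose as often as these members was not counted.

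PSMG4, another core chaperone, fell in T3M-4 and AsPC-1 with both knockouts. T3M-4 experiment 2 had it at 49.4, 45.4, 48.6 and 55.9 TPM with sgRosa, at 30.2, 38.3 and 29.6 TPM with sgRUVBL1 and at 33.4, 33.6, 33.4 and 34.1 TPM with sgRUVBL2 (-0.60 ± 0.10 and -0.55 ± 0.10). In AsPC-1 experiment 2 it was at 49.6, 42.7, 42.7 and 48.1 TPM with sgRosa and at 24.0, 25.6, 22.2 and 36.7 TPM with sgRUVBL1 (-0.76 ± 0.12, adjusted p = 8.92e-05). In AsPC-1 experiment 3 the sgRosa libraries were at 37.9, 34.5, 38.7 and 39.8 TPM, those of sgRUVBL1 at 28.8, 22.6, 33.7 and 23.7 TPM and those of sgRUVBL2 at 32.03, 7.37, 25.8 and 23.8 TPM. All knockout libraries were below the controls there, but only sgRUVBL2 passed (-0.90 ± 0.29, adjusted p = 0.016), and sgRUVBL1 did not (-0.47 ± 0.29, adjusted p = 0.174). In BxPC-3 (-0.38 and -0.19) and CFPAC-1 (-0.02 and 0.23) PSMG4 did not pass.

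PSMB10 fell in AsPC-1 and rose in T3M-4 before scaling. In AsPC-1 experiment 3, PSMB10 was at 77.4, 81.8, 77.2 and 77.8 TPM with sgRosa, at 42.1, 49.5, 46.5 and 40.5 TPM with sgRUVBL1 and at 56.8, 31.6, 39.9 and 50.1 TPM with sgRUVBL2. The changes were -0.81 ± 0.12 (adjusted p = 2.69e-05) and -0.84 ± 0.12 (adjusted p = 3.77e-05), and -0.62 ± 0.08 (adjusted p = 1.55e-05) with sgRUVBL1 in experiment 2. PSMB10 rose in T3M-4 experiment 2, from a mean of 176.5 ± 23.1 TPM (SD, n = 4) with sgRosa to 236, 255 and 237 TPM with sgRUVBL1 (0.46) and 403, 232, 262 and 319 TPM with sgRUVBL2 (0.76 ± 0.13, adjusted p = 0.000105). After scaling the T3M-4 change was 0.17 (adjusted p = 0.443) for sgRUVBL1 and 0.54 (adjusted p = 0.0128) for sgRUVBL2, and those in AsPC-1 experiment 3 were -0.98 and -1.0031. The difference between the lines was not tested, because they were fitted separately.

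PSMB8 fell in AsPC-1 experiment 3 with sgRUVBL1 (-0.49) and sgRUVBL2 (-0.29), as did PSME1 (-0.19 and -0.20), and in experiment 2 PSMB9 (-0.45) and PSME1 (-0.30) fell. In T3M-4, PSMB9 (0.40 and 0.73) and PSME2 (0.27 and 0.33) rose with both knockouts, and PSMB8 (0.43) and PSME1 (0.22) with sgRUVBL2. After scaling 0 of all members rose there with sgRUVBL1 and 2 with sgRUVBL2, PSMB10 among them. Of the 10 interferon and presentation genes, 9 rose in T3M-4 with each of these knockouts, 8 with sgKLF5 and with sgRpa3 and 7 with sgCDK1 of the same experiment, all against the same sgRosa libraries. The shares of all genes that rose there were 45.9% with sgRUVBL1, 39.3% with sgRUVBL2, 23.4% with sgKLF5, 18.4% with sgRpa3 and 13% with sgCDK1. After scaling the counts of the list were 8, 8, 8, 5 and 4, against 26.4%, 24.7%, 16.8%, 11.3% and 7.03% of all genes. In AsPC-1 experiment 3, 4 of the 10 rose and 1 fell with sgRUVBL1 and 4 and 0 with sgRUVBL2. Of all genes, 36.6% rose and 15.2% fell with sgRUVBL1 and 32.2% and 11% with sgRUVBL2, so the rising counts were near these shares. After scaling the counts were 1 and 2 with sgRUVBL1, against 23.4% and 26.5%, and 2 and 1 with sgRUVBL2, against 18.9% and 21.9%. In CFPAC-1 with sgRUVBL2, PSMB9 (0.49 ± 0.10, adjusted p = 0.00616) and PSMB8 (0.32) rose, and in BxPC-3 with sgRUVBL1 PSMB8 (-0.30) and PSME2 (-0.29) fell. The remaining members of this group in BxPC-3 and CFPAC-1 were between -0.29 and 0.32 and did not pass, except PSME1 in CFPAC-1 with sgRUVBL1 (below).

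In AsPC-1, chaperones of the base rose. PSMD10 in experiment 3 was at 67.7, 59.3, 72.1 and 66.1 TPM with sgRosa, at 94.6, 86.1, 86.7 and 94.5 TPM with sgRUVBL1 and at 76.9, 104, 85.4 and 89.8 TPM with sgRUVBL2 (0.44 ± 0.08 and 0.41 ± 0.08). PSMD5 rose by 0.39 and 0.43, PSMD12, a lid subunit, by 0.35 and 0.34 and PSMD8 by 0.41 with sgRUVBL1, whereas PSMA4 fell (-0.24 and -0.35). In experiment 2 PSMD8 (0.39), PSMD10 (0.39), PSMA7 (0.22), PSMD9 (0.22) and PSMB3 (0.16) were the members that rose. In CFPAC-1 PSMD11 (-0.50), PSME4 (-0.49) and PSME3 (-0.39) fell most with sgRUVBL1.

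For sgRUVBL1, 21 members fell and 5 rose in AsPC-1 experiment 2, against 25.8% and 30% of genes. AsPC-1 experiment 3 had 12 rising and 8 falling, against 36.6% and 15.2%, and after scaling 3 and 14, against 23.4% and 26.5%. T3M-4 experiment 2 had 13 falling and 6 rising, against 14.6% and 45.9%, and after scaling 32 and 0, against 29.8% and 26.4%. Without sgRUVBL1 replicate 2 the T3M-4 counts were 10 and 3. In CFPAC-1, 13 fell and 1 rose (PSME1, 0.18), against 37.3% and 6.54%, but after scaling 3 fell and 14 rose, against 16.9% and 19.2%, and leaving out sgRUVBL1 replicate 2, sgRosa replicate 2 or sgRosa replicate 4 gave 14, 12 or 11 falling and 2 rising. In BxPC-3, 5 fell (PSMA4, PSMB8, PSMC5, PSME2 and PSMG1) and 1 rose (PSMD8, 0.22), against 7.67% and 8.29%, and after scaling 2 and 0, against 9.44% and 9.62%. Without BxPC-3 sgRUVBL1 replicates 1, 2 or 3, the counts were 4, 3 or 6 lower and 0 higher, and without sgRosa replicates 1, 3 or 4 they were 4, 5 or 7 lower and 0 higher.

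For sgRUVBL2, 7 members rose and 7 fell in AsPC-1 experiment 3, against 32.2% and 11% of genes, and after scaling 2 and 14, against 18.9% and 21.9%. T3M-4 experiment 2 had 6 rising and 8 falling, against 39.3% and 15.2%, and after scaling 2 and 19, against 24.7% and 28.3%. In CFPAC-1, 2 rose (PSMB8 and PSMB9) and 2 fell (PSMD11 -0.34, PSME3 -0.27), against 2.83% and 9.26%, and after scaling 2 and 0, against 5.22% and 5.98%. Leaving out CFPAC-1 sgRUVBL2 replicate 1 gave 0 and 0, replicate 2 gave 2 and 0, and sgRosa replicates 1, 2, 3 and 4 gave 1 and 0, 2 and 0, 1 and 0, and 3 and 6. In BxPC-3, PSMD3 alone fell (-0.22 ± 0.07, adjusted p = 0.0446) and 0 rose in limma (2 higher and 6 lower at an unadjusted p under 0.05), against 5.48% and 4.27%. Its count of lower members was 1, 2 or 0 without sgRUVBL2 replicate 1, 2 or 3 and 0 without sgRosa replicate 1, 2 or 3, and 1 rose without sgRUVBL2 replicate 1 or sgRosa replicate 1.

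Set directly against each other, the 2 knockouts differed little. PSMA7 in AsPC-1 experiment 3 was lower with sgRUVBL2 than with sgRUVBL1 (-0.16 ± 0.04, adjusted p = 0.0449), 1 lower and 0 higher of 46 by limma (7 lower and 0 higher at an unadjusted p under 0.05), against 1.53% and 2.18% of genes. Leaving out any sgRUVBL2 replicate, or sgRUVBL1 replicate 1, 2 or 4, gave 0. In BxPC-3, CFPAC-1 and T3M-4, limma called 0 of 46 members, where 0.0323%, 0.0235% and 0.0226% of genes were called in either direction. At an unadjusted p under 0.05, 6 were higher and 2 lower in BxPC-3, 5 and 0 in CFPAC-1 and 4 and 0 in T3M-4. Leaving out BxPC-3 sgRUVBL2 replicate 2 gave 2 higher, and CFPAC-1 sgRUVBL2 replicate 2 or sgRUVBL1 replicate 3 gave 1. The immunoproteasome and PA28 members differed by between -0.13 and 0.56, with PSMB9 in CFPAC-1 the largest (0.56 ± 0.10, adjusted p = 0.0839), and none passed.

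Knockout of KLF5 in T3M-4 experiment 1 raised 5 members, and these were the 3 immunoproteasome subunits and the 2 PA28 subunits. PSMB9 was at 23.3 and 24.0 TPM with sgRosa, at 103, 104, 91.1 and 82.8 TPM with sgKLF5 and at 48.7 and 52.7 TPM with sgRpa3. PSMB10 was at 96.7 and 84.2 TPM with sgRosa, at 237, 370, 203 and 182 TPM with sgKLF5 and at 102 and 121 TPM with sgRpa3. PSME2 was at 240.7 and 242 TPM with sgRosa, at 434, 613, 442 and 411 TPM with sgKLF5 and at 311 and 354 TPM with sgRpa3. In each of the 3 genes all sgKLF5 libraries lay above both controls and both sgRpa3 libraries, and sgKLF5 replicate 2 was the highest. That library also had the lowest mean log2 level of constitutive core and regulatory members in its group (7.82). Over the 4 sgKLF5 libraries, however, the summed core ran from 5853 to 7139 TPM and the regulatory particle from 3236 to 3597 TPM. Genes at 1 TPM ran from 11524 to 12773 there, against 12526 and 12527 in the controls. KLF5 mRNA ran from 92.1 to 482 TPM over these 4 libraries against 293 and 306 TPM in the controls. The part of these differences in the result was not tested.

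The log2 changes with sgKLF5 were 1.96 ± 0.17 (n = 4 and 2, adjusted p = 0.00115) for PSMB9, 1.39 ± 0.28 (adjusted p = 0.0279) for PSMB10, 1.06 ± 0.13 (adjusted p = 0.00448) for PSMB8, 0.96 ± 0.18 (adjusted p = 0.0242) for PSME2 and 0.75 ± 0.13 (adjusted p = 0.0162) for PSME1. After scaling PSMB9 (2.21, adjusted p = 0.00685) and PSMB8 (1.32, adjusted p = 0.0296) still passed, and PSMB10 (adjusted p = 0.06), PSME1 (adjusted p = 0.0677) and PSME2 (adjusted p = 0.081) did not. Overall 5 of 46 members rose and 0 fell in limma (6 and 3 at an unadjusted p under 0.05), against 3.26% and 2.46% of genes. The count rested on few libraries: it was 2 and 0 without sgKLF5 replicate 1 or 3, 7 and 6 without replicate 2, and 1 and 0 without either sgRosa replicate. Of the 10 interferon and presentation genes, limma called 0, with TAPBP at 1.14 (adjusted p = 0.0622), IRF1 at 0.83 (adjusted p = 0.107), TAP1 at 0.66 (adjusted p = 0.19) and B2M at 0.56 (adjusted p = 0.138).

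The control libraries themselves were higher in T3M-4 experiment 2. PSMB9 was at 114, 104, 144 and 175 TPM with sgRosa and at 173, 183, 180.0 and 180.1 TPM with sgKLF5, so that the highest control lay just above the lowest knockout library (0.44 ± 0.14, adjusted p = 0.0228). PSMB10 was at 166, 151, 185 and 204 TPM with sgRosa and at 283, 254, 258 and 260.4 TPM with sgKLF5, with no overlap (0.58 ± 0.13, adjusted p = 0.00182). PSMB8 (0.35) and PSME2 (0.33) rose too, and PSME1 did not pass (0.17, adjusted p = 0.0896). After scaling, PSMB10 still passed (0.45, adjusted p = 0.0463) and PSMB9 (adjusted p = 0.207), PSMB8 (adjusted p = 0.213) and PSME2 (adjusted p = 0.249) did not. The difference between the experiments in the sgKLF5 change passed for 12 of 46 members, against 17.4% of genes, with differences (experiment 2 minus 1) of -1.52 for PSMB9, -0.71 for PSMB8 and -0.58 for PSME1.

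In total 12 members rose and 1 fell (PSMG1, -0.30) with sgKLF5 in T3M-4 experiment 2, against 23.4% and 11.2%, and after scaling 3 and 1, against 16.8% and 20.9%. PSMA6 (0.42), an alpha subunit, and PSME4 (0.37) rose beside PSMB10. Without sgKLF5 replicate 2 the counts were 10 and 0, and without sgRosa replicate 1 they were 9 and 0.

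**Figure D4:**
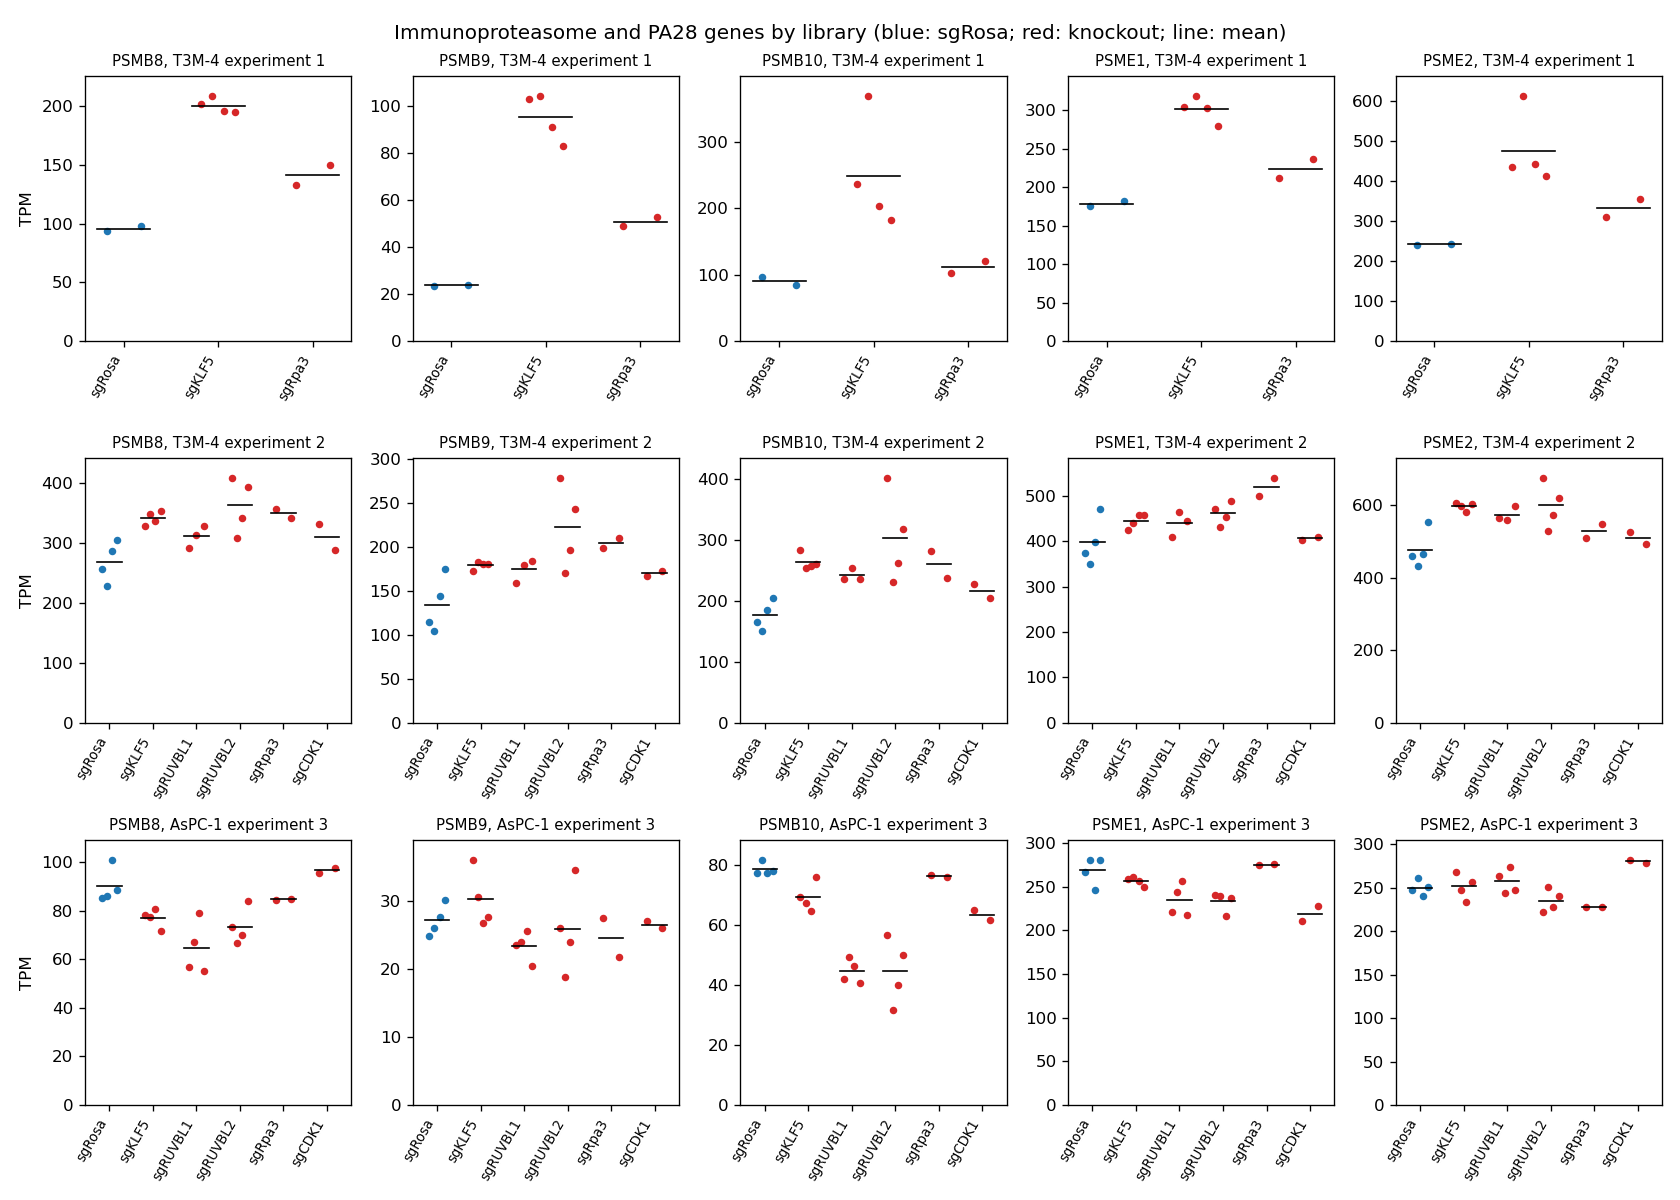
TPM per library of PSMB8, PSMB9, PSMB10, PSME1 and PSME2 in T3M-4 experiment 1 (top), T3M-4 experiment 2 (middle) and AsPC-1 experiment 3 (bottom) for sgRosa (blue) and each knockout (red), with a line at each mean. In T3M-4 experiment 1 all sgKLF5 libraries lie above both sgRosa libraries in all 5 genes, and in AsPC-1 experiment 3 PSMB10 is lower with sgRUVBL1 and sgRUVBL2.

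In AsPC-1 experiment 1, sgKLF5 raised PSMB8, from 34.2 and 37.3 TPM with sgRosa to 49.1, 47.5, 50.8, 62.7, 48.8 and 59.2 TPM, a change of 0.55 ± 0.11 (n = 6 and 2, adjusted p = 0.00561). PSMB9 rose from 9.10 and 12.8 TPM to 17.3, 13.7, 14.1, 17.8, 17.2 and 21.5 TPM (0.59 ± 0.17), PSMD10 by 0.34 and PSME1 by 0.27. PSMG1 (-0.41), PSMB7 (-0.26), PSMC3 (-0.24), PSMB6 (-0.22), PSMD13 (-0.18) and PSMA6 (-0.15) fell, and PSMB10 (0.24) and PSME2 (-0.05) did not pass. The counts of 4 rising and 6 falling stood against 17.1% and 8.81% of genes, and after scaling 2 and 6 against 14.7% and 14.6%. They were 3 and 3 without sgKLF5 replicate 1 or 5, 4 and 3 without replicate 2 or 3, 1 and 2 without sgRosa replicate 1 and 2 and 0 without sgRosa replicate 2.

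Constitutive members rose in place of these in AsPC-1 experiment 3. PSMC6 (0.34 ± 0.08), a base ATPase, PSMB4 (0.32 ± 0.06) and PSMA3 (0.30 ± 0.11) rose most, and PSMB8 was at 78.4, 77.6, 80.7 and 71.9 TPM with sgKLF5 against 85.2, 86.2, 101 and 88.4 TPM with sgRosa (-0.22, adjusted p = 0.0917). PSMB9, PSMB10, PSME1 and PSME2 were between -0.18 and 0.15 and did not pass. Here 12 rose and 0 fell in limma (17 and 1 at an unadjusted p under 0.05), against 15.4% and 12.3%, and after scaling 6 and 0, against 15.3% and 15.2%, with 6 rising before scaling without sgKLF5 replicate 1 or 4 and 7 without sgRosa replicate 3. The sgKLF5 change differed between experiments 1 and 3 in 9 of 46 members, against 4.28% of genes, with differences (experiment 3 minus 1) of -0.77 for PSMB8 and 0.40 for PSMC3.

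In BxPC-3 experiment 2, sgKLF5 raised 34 of 46 members and lowered 1, against 21% and 13.6% of genes. All 7 alpha subunits, all 6 base ATPases, all 11 other subunits of the regulatory particle and 5 of 7 beta subunits rose, with a median change of 0.25 where that of all genes was 0.05. PSMC6 was at 127, 104, 99.8 and 97.7 TPM with sgRosa and at 160.4, 152, 161 and 158 TPM with sgKLF5 (0.56 ± 0.07, adjusted p = 7.24e-06). PSMC4, another ATPase, was at 141, 142, 118 and 100.6 TPM against 182, 183, 166 and 186 TPM (0.52), and PSME3 rose by 0.50. The sgKLF5 libraries lay above all controls in each of these 3. PSMB10 was the member that fell, from 100.3, 107, 124 and 122 TPM to 88.1, 78.0, 85.9 and 93.2 TPM (-0.39 ± 0.12, adjusted p = 0.0157).

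PSME2 rose by 0.19 there, and PSMB8 (-0.05), PSMB9 (-0.25) and PSME1 (0.05) did not pass. After scaling 16 rose and 1 fell, against 18.2% and 18.3%. Without sgKLF5 replicate 2 or sgRosa replicate 3 the counts were 29 and 0, and without sgRosa replicate 4 they were 27 and 0. The sums by library were less even in the controls than in the knockout: the core held 4649, 4586, 4214 and 4184 TPM with sgRosa and 5364, 5300.0, 5212 and 5160 TPM with sgKLF5, and the regulatory particle 2613, 2574, 2320 and 2220 TPM against 3117, 3061, 2936 and 3012 TPM. Neither pair of groups overlapped.

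This rise was not seen in BxPC-3 experiment 1, where 1 member rose (PSME1, 0.24) and 1 fell (PSMD2, -0.30), against 8.09% and 8.1% of genes. PSMD2 was at 434 and 423 TPM with sgRosa and at 376, 365, 314 and 337 TPM with sgKLF5 in experiment 1, and at 292, 297, 271 and 265 TPM against 355, 349, 352 and 351 TPM in experiment 2. The changes are opposite in sign and differed by 0.63 (adjusted p = 0.000488). PSMB8, PSMB9, PSMB10 and PSME2 in experiment 1 were between 0.02 and 0.31 and did not pass. The counts were 0 and 1 without sgKLF5 replicate 2 and 0 and 0 without sgKLF5 replicate 4 or either sgRosa replicate. The change differed between the experiments in 15 of 46 members, against 16.7% of genes.

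In CFPAC-1, sgKLF5 raised 10 members and lowered 0 in limma (16 and 0 at an unadjusted p under 0.05), against 3.26% and 13% of genes, and after scaling 22 and 0, against 8.45% and 6.91%. PSMB5, the constitutive chymotrypsin-like subunit, was at 547, 624, 585 and 557 TPM with sgRosa and at 745, 719 and 715 TPM with sgKLF5 (0.33 ± 0.06, adjusted p = 0.00396). PSMG1 (0.36) and PSMB9 (0.32) also rose with all libraries above the controls, whereas PSMB8, PSMB10, PSME1 and PSME2 were between -0.10 and 0.12. The count fell to 2, 2 or 4 without sgKLF5 replicate 1, 2 or 3 and to 1 or 3 without sgRosa replicate 1 or 3, and was 12 rising and 1 falling without sgRosa replicate 4. In SUIT-2, limma called 0 members (2 higher and 0 lower at an unadjusted p under 0.05), against 3.94% of genes, with PSMB9 at 0.33 (adjusted p = 0.269), PSMB10 at -0.33 and PSMB8, PSME1 and PSME2 between 0.01 and 0.16. Over the 8 sgKLF5 comparisons PSMB5 and PSMB9 rose in 4 each, and in 1 and 2 after scaling. How many of all genes rose as often was not counted.

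Knockout of RPA3 lowered constitutive members in 3 lines. PSMD1, the scaffold partner of PSMD2, was at 86.5, 78.9, 81.1 and 74.5 TPM with sgRosa in BxPC-3 experiment 2 and at 48.6 and 50.1 TPM with sgRpa3 (-0.69 ± 0.07, n = 2 and 4, adjusted p = 2.33e-05). In CFPAC-1 it was at 132, 133, 128 and 131 TPM against 98.3 and 97.0 TPM (-0.42 ± 0.10). PSMC1, a base ATPase, was at 374, 389, 348 and 389 TPM with sgRosa in CFPAC-1 and at 267 and 265 TPM with sgRpa3 (-0.49 ± 0.06, adjusted p = 0.000211). None of these groups overlapped. In T3M-4 experiment 2, PSMC3 was at 248, 246, 214 and 231 TPM with sgRosa and at 172 and 153 TPM with sgRpa3 (-0.53 ± 0.07, adjusted p = 0.000123), and PSMB6 (-0.55) and PSMC4 (-0.52) fell likewise. Others with large falls were PSMD14 (-0.61), the deubiquitinase of the lid, and PSMC5 (-0.56) in BxPC-3 and PSMA3 (-0.48) in CFPAC-1.

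Immunoproteasome members rose against this direction. PSMB10 in BxPC-3 experiment 2 was at 100.3, 107, 124 and 122 TPM with sgRosa and at 185 and 175 TPM with sgRpa3 (0.66 ± 0.14, adjusted p = 0.00359, and 0.64 after scaling, adjusted p = 0.0159). PSMB9 (0.49), PSMG3 (0.32) and PSME1 (0.26) were the other members that rose there, and PSMB8 (0.27, adjusted p = 0.0595) and PSME2 (-0.19) did not pass. The members that rose in T3M-4 experiment 2 were PSMB9 (0.63), PSMB10 (0.56), PSME1 (0.39) and PSMB8 (0.38), none of them after scaling, beside 8 of 10 interferon and presentation genes. PSME2 was at 0.15 and did not pass. In CFPAC-1 the 5 genes were between -0.05 and 0.19.

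In BxPC-3 experiment 2, 30 members fell and 4 rose, against 11.6% and 9.12% of genes, with a median change of -0.29 where that of all genes was 0.02. After scaling 18 fell and 2 rose, against 13% and 10.4%. Without sgRpa3 replicate 1 or 2, 8 or 14 fell and 0 or 1 rose, and without sgRosa replicate 1 or 2, 24 fell and 2 or 1 rose. T3M-4 experiment 2 had 24 falling and 4 rising, against 6.2% and 18.4%, and after scaling 34 and 0, against 16.3% and 11.3%. Without sgRpa3 replicate 1 or 2, 18 or 14 fell and 1 rose. In CFPAC-1, 19 fell and 0 rose in limma (27 and 1 at an unadjusted p under 0.05), against 3.39% and 8.17%, and 5 or 1 fell without sgRpa3 replicate 1 or 2. After scaling 27 fell and 0 rose in CFPAC-1, against 7.09% and 4.72%. PSMA2, PSMA5, PSMB1, PSMB6 and PSMC3 fell in these 3 of 6 comparisons, and how many of all genes did so was not counted.

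The 3 other sgRpa3 comparisons called 0 of 46 members in limma. At an unadjusted p under 0.05, 5 were lower in AsPC-1 experiment 3, 1 was higher in BxPC-3 experiment 1 and 2 were higher in T3M-4 experiment 1. All genes called were 0.654%, 0.307% and 0%, with 2 sgRpa3 libraries in each. PSMB8, PSMB9, PSMB10, PSME1 and PSME2 were between -0.14 and 0.04 in AsPC-1 and between -0.21 and 0.13 in BxPC-3. In T3M-4 experiment 1 they were between 0.30 (PSMB10) and 1.07 (PSMB9, adjusted p = 0.943), with both sgRpa3 libraries above both controls in all 5.

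**Figure D5:**
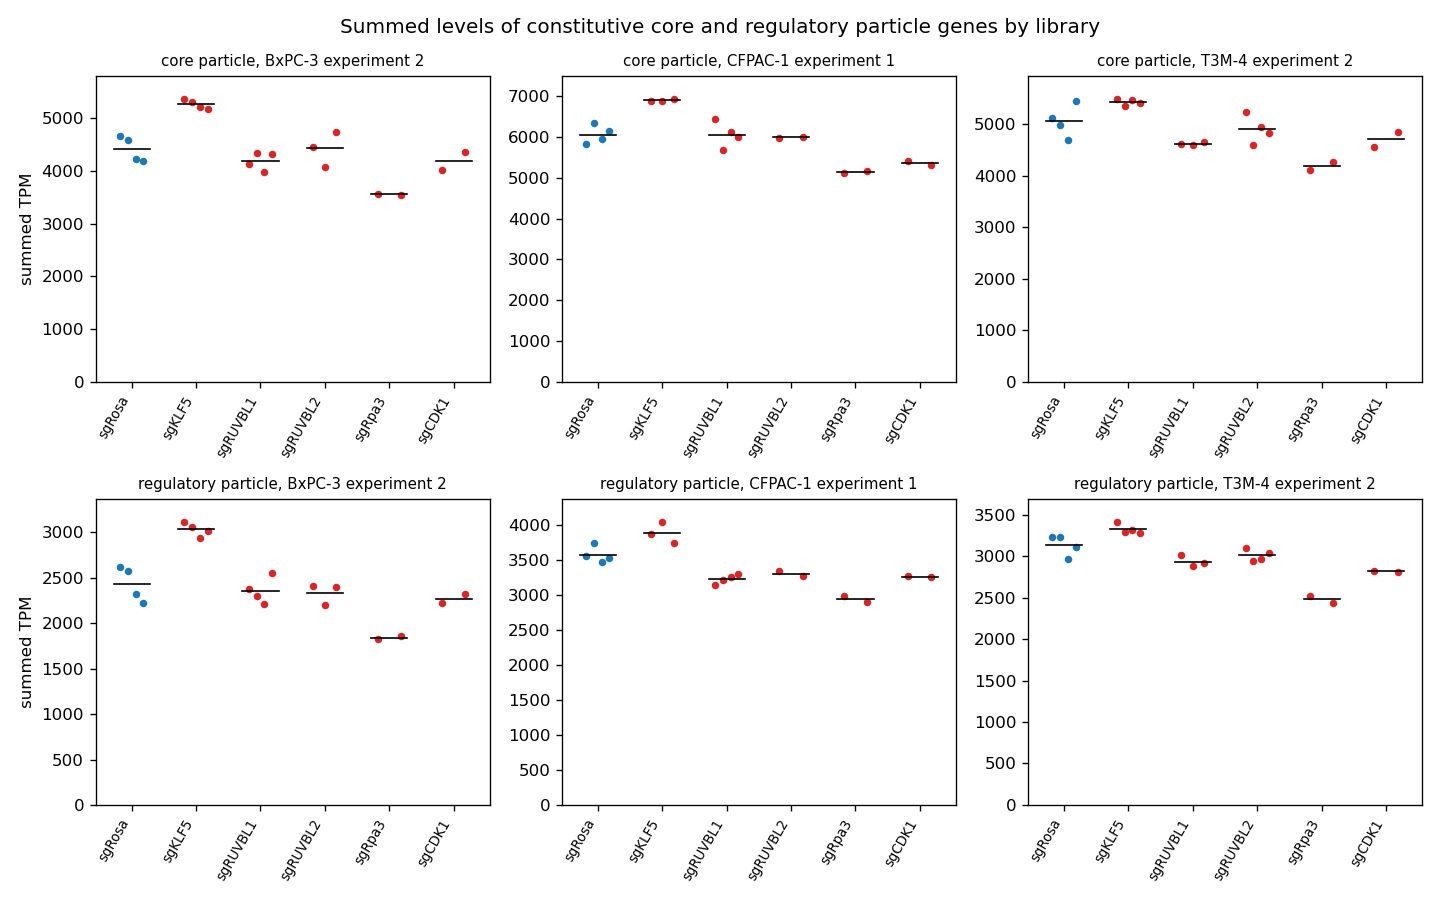
Summed TPM per library of the 14 constitutive core genes (top) and the 17 regulatory particle genes (bottom) in BxPC-3 experiment 2, CFPAC-1 experiment 1 and T3M-4 experiment 2, for sgRosa (blue) and each knockout (red), with a line at each mean. The core with sgRpa3 lies below every sgRosa library in all 3, at 3556 and 3544 TPM in BxPC-3, and with sgKLF5 in BxPC-3 it lies above them.

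Knockout of CDK1 gave few calls. In T3M-4 experiment 2, 7 members fell (PSMB6 -0.39, PSMG1 -0.37, PSMD8 -0.32, PSMC5 -0.29, PSMC3 -0.28, PSMA7 -0.26 and PSMB7 -0.22) and 0 rose in limma (12 lower and 1 higher at an unadjusted p under 0.05), against 3.85% and 13% of genes. Without sgCDK1 replicate 1 or 2, 4 or 1 fell, and without sgRosa replicate 1, 3 or 4, 4, 11 or 6 fell (1 rose in the last). In AsPC-1 experiment 3, 6 fell (PSME1 -0.29, PSMC1 -0.28, PSMD1 -0.27, PSMG2 -0.24, PSMD7 -0.21 and PSMD13 -0.20) and 1 rose (PSMG1, 0.29), against 6.44% and 10.3%, and after scaling 2 and 0, against 8.1% and 10.3%. Without sgCDK1 replicate 1 or 2, 1 fell and 0 rose, and without sgRosa replicate 2, 3 or 4, 6, 4 or 3 fell and 0 rose. In BxPC-3 experiment 2, PSMB8 rose (0.41 ± 0.10, adjusted p = 0.0152) and 0 fell in limma (4 at an unadjusted p under 0.05), against 3.71% and 2.12%, with 0 called without either sgCDK1 replicate. In CFPAC-1, limma called 0 members (1 higher and 15 lower at an unadjusted p under 0.05) and 0% of all genes. The immunoproteasome and PA28 members not named here were between -0.30 and 0.37 in these comparisons.

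In the AsPC-1 libraries labelled sgCHD4, 13 members rose and 7 fell, against 23.3% and 26.7% of genes. PSMB7, a constitutive catalytic subunit, rose from a mean of 344 ± 10.2 to 457 ± 18.7 TPM (SD, n = 4 and 4, 0.41 ± 0.04, adjusted p = 6.24e-06), whereas PSMB10, which replaces it, fell from 78.0 ± 4.66 to 65.0 ± 2.67 TPM (-0.26 ± 0.06, adjusted p = 0.00222). PSMB9 (0.39), PSMD2 (0.33) and PSMB8 (0.18) rose, PSMD7 (-0.23) and PSMD10 (-0.22) fell, and PSME1 (-0.09) and PSME2 (0.06) did not pass. With sgSERPINB5, limma called 0 members (1 higher and 2 lower at an unadjusted p under 0.05), against 0.0343% of genes, and the immunoproteasome and PA28 members were between -0.35 (PSMB9, adjusted p = 0.636) and 0.07.

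NFE2L1 also changed in some knockouts. It rose with sgRUVBL1 in AsPC-1 experiments 2 (0.29) and 3 (0.38) and T3M-4 experiment 2 (0.44), with sgRUVBL2 in AsPC-1 (0.43) and T3M-4 (0.33), with sgKLF5 in T3M-4 experiment 2 (0.48) and with sgRpa3 in BxPC-3 experiment 2 (0.41). It fell with sgKLF5 in BxPC-3 experiment 2 (-0.35), where 34 members rose, and with sgCHD4 (-0.37). Reads of members with near-identical processed pseudogenes or paralogs may have been shared among copies in the authors' quantification, so levels of such members are uncertain.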

How the data were processed

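RNA-seq of poly-A RNA was analysed in 183 libraries from 8 tables. The authors pseudo-aligned single-end reads to hg38 with kallisto (version not given in the sources used here), removed low-abundance transcripts by a limit not stated, and summarised transcripts to genes with tximport. The deposited values are TPM per gene, normalised separately in each table, and no column was left without a sample (0 columns). TPM keeps no read depth, so no counting interval is given.

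Values were analysed as log2(TPM + 1) by limma 3.58.1 in R 4.3.3, with an empirical Bayes trend, leaving out genes whose mean over the fitted libraries was under 1 TPM, and Benjamini-Hochberg adjustment over all genes tested. A fold change on this scale understates changes of low genes. A count model, which the study's methods use, could not be run on TPM. All libraries of a line and experiment entered 1 fit, which pooled the spread, also where leaving out a library left a group with 1. Groups came from the labels. The procedure was tested on simulated data.

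The members and the gene lists were chosen with earlier results of these data known. Named were, per comparison, the 3 largest rises and 3 largest falls past the threshold without overlap, the immunoproteasome and PA28 genes, members called against the majority where 5 or fewer, the 3 members most often called one way for each kind of comparison, the 3 largest pathway changes with CB-6644, and NFE2L1. Some pathway results that this rule takes in are not reported here. Other genes printed, such as PSMD3 and PSMG4 across lines and the interferon genes, were chosen after their values were seen. The labels do not say that a replicate number marks a shared batch. Every same-numbered pair correlated above 0.1 only between sgRUVBL1 and sgRUVBL2 of BxPC-3 experiment 2 (0.216 to 0.46 over 3 pairs), where 0 members were called with and without the replicate block. No 2 libraries held identical values. Alternatives were a pseudocount of 0.1, a minimum mean of 5 TPM and none, median-of-ratios scaling, fits of the 2 groups alone, a vector's own DMSO library, a replicate block and leaving out each library. Promoters and gene positions are from RefSeq on GRCh38.p14.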

Additional observations from a re-analysis of the deposited data

Results flagged for a closer look

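The mean log2 level of the constitutive core and regulatory members was far from the rest of its group in 2 of 60 group measures tested, and chance flags about 1 in 20. In T3M-4 experiment 1 it was 7.82 in sgKLF5 replicate 2 and 7.96 to 7.97 in the other 3 libraries. In T3M-4 experiment 2 it was 7.70 in sgRosa replicate 3 and 7.80 to 7.82 in the other 3 controls.

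The change with sgKLF5 differed between experiments of 1 line by the limma test of the difference. It differed in 9 of 46 members in AsPC-1 (4.28% of all genes), with PSMC3 at 0.40 (adjusted p = 0.0024), PSMB8 at -0.77 (adjusted p = 0.00255) and PSMD13 at 0.32 (adjusted p = 0.00978), experiment 3 minus 1. It differed in 12 members in T3M-4 (17.4% of all genes), with PSMB9 at -1.52 (adjusted p = 0.000257), PSMB8 at -0.71 (adjusted p = 0.00505) and PSME1 at -0.58 (adjusted p = 0.00701), experiment 2 minus 1. It differed in 15 members in BxPC-3 (16.7% of all genes), with PSMD2 at 0.63 (adjusted p = 0.000488), PSME3 at 0.76 (adjusted p = 0.0019) and PSMB2 at 0.41 (adjusted p = 0.00465), experiment 2 minus 1.

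The change with CB-6644 differed among T84, A375, H1048 and RH30 in 39 of 46 members, a share near the 86.2% of all genes tested that differed.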

How the results depend on the processing

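Scaling moved the results most. After median-of-ratios scaling the median change of the members with CB-6644 became -0.41 in A375, -0.26 in H1048, -0.25 in RH30, -0.21 in T84, -0.24, -0.23 and -0.35 in AsPC-1 with the empty vector, RUVBL1_A62T and RUVBL2_dF109, and -0.23, -0.38 and -0.33 in T3M-4 in that order. Variant against empty vector became 0.037 and -0.13 in AsPC-1 and -0.13 and -0.075 in T3M-4. For sgKLF5 it became -0.15 in AsPC-1 experiment 1, 0.24 in CFPAC-1, -0.15 in SUIT-2, 0.22 in T3M-4 experiment 1 and -0.039 in experiment 2. In AsPC-1 experiment 3 it became -0.14 for sgRpa3, -0.11 for sgRUVBL1 and -0.13 for sgRUVBL2, in BxPC-3 experiment 1 0.12 for sgRpa3, in CFPAC-1 -0.19 for sgCDK1, -0.31 for sgRpa3, 0.17 for sgRUVBL1 and 0.042 for sgRUVBL2, and in T3M-4 experiment 2 -0.28, -0.41, -0.35 and -0.23 in that order. sgRUVBL2 against sgRUVBL1 became 0.14 in BxPC-3, -0.10 in CFPAC-1 and 0.13 in T3M-4. Against its own vector's DMSO library alone, the empty-vector median was -0.14 in AsPC-1 and -0.032 in T3M-4.

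Under the same scaling these called members changed sign: with CB-6644, PSMB8 in A375 (-0.081), AsPC-1 (-0.13) and T84 (-0.012), PSMB9 in AsPC-1 (-0.036), PSME1 in AsPC-1 (-0.085) and T84 (-0.074), PSMD8 and PSME2 in H1048 (-0.012 and -0.019), PSMD5 in AsPC-1 RUVBL2_dF109 (-0.0064) and T3M-4 RUVBL1_A62T (-0.079), PSME4 in T3M-4 with RUVBL1_A62T (-0.024) and RUVBL2_dF109 (-0.054) and PSMD12 with the latter (-0.0195), and, with sgRUVBL1 in T3M-4, PSME2 (-0.025) and PSMD12 (-0.054). The cause was not tested. In all, 134 named member results kept direction and call under scaling, 51 lost the call and 15 changed sign. Under a pseudocount of 0.1 or a minimum of 5 TPM all 200 named results kept their call, with no filter 11 lost it, with the 2 groups alone 35, with the own DMSO library 11 of 29, and over all fits that left out 1 library 224 against 1187 that kept it, with no change of sign.

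Leaving out 1 library moved the median change of the members, over its range, from -0.12 to -0.084 for AsPC-1 RUVBL1_A62T against the empty vector, -0.0195 to 0.044 for T3M-4 experiment 1 sgRpa3, 0.062 to 0.11 for T3M-4 experiment 2 sgKLF5 and -0.095 to -0.039 for sgRUVBL1 there.

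With the replicate number as a block, members rising and falling were 10 and 6 with sgCHD4, 3 and 4 with sgKLF5 in AsPC-1 experiment 1, 0 and 0 in BxPC-3 experiment 1, 7 and 0 in CFPAC-1 and 7 and 4 in T3M-4 experiment 1, 0 and 12 with sgRpa3 in CFPAC-1, 0 and 7 with sgRUVBL1 and 0 and 2 with sgRUVBL2 in BxPC-3, 2 and 1 with sgRUVBL2 in CFPAC-1 and 0 and 4 with sgCDK1 in AsPC-1. For the variants against the empty vector they were 1 and 14 (AsPC-1 RUVBL1_A62T), 13 and 2 and 12 and 0 (T3M-4 RUVBL1_A62T and RUVBL2_dF109). Of 171 named results, 156 kept their call under the block. Outside BxPC-3 sgRUVBL2 against sgRUVBL1 the samples share only a number. No paired analysis was possible because DMSO had 1 library per vector for CB-6644 against DMSO in AsPC-1 and T3M-4. TPM gives no read depth, so what depth limits could not be stated.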
